A study of Sus scrofa with 2 samples.

Results

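The AP-1 and EGR immediate early genes were followed in granulosa cells of the pig (Sus scrofa), the support cells around the egg in each ovarian follicle. Of 10 genes of these families (FOS, FOSB, FOSL1, FOSL2, JUN, JUNB, JUND, ATF3, EGR1 and EGR2), 8 were matched to a row among the 34570 genes of the tables. FOS, FOSL1, JUNB, EGR1 and EGR2 are listed under those symbols. The other 3 were matched through a table of gene names: FOSL2 and ATF3 are listed under gene numbers, and JUN under the older symbol C-JUN. FOSB and JUND were matched to no row and were not analysed here. The members were taken by name, with earlier results of these data known.

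The cells came from ovaries of female Chinese Erhualian pigs and received either an siRNA against SMAD4 or a negative control siRNA. SMAD4 is the SMAD that the SMAD signals of TGF-beta, activin and BMP receptors share. Per the labels' protocols, RNA of 3 individuals was mixed in equal amounts for each treatment and 1 library per treatment was sequenced, so each comparison is between 2 libraries with no replicates and no test. Whether both pools came from the same animals, the siRNA dose and the time after transfection are not stated in the labels used here. The values, called UQRPKM below, are RPKM in which each library was scaled by its upper quartile, and so are levels per length of transcript. In cell pools, fewer cells of a type and less RNA per cell cannot be told apart.

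AP-1 is not a single protein but a family of dimers. FOS proteins (FOS, FOSB, FOSL1, FOSL2) pair only with partners such as JUN proteins, whereas JUN proteins (JUN, JUNB, JUND) can also pair with each other, and both bind the same short DNA element through a basic leucine zipper. ATF3 is a related zipper protein that often represses. EGR1 and EGR2 are zinc finger factors. Most are immediate early genes: growth factor, gonadotropin and stress signals switch them on through MAP kinases without new protein synthesis, and their mRNAs decay quickly. In rodent granulosa cells the ovulatory surge of luteinizing hormone induces EGR1 and FOS family genes, and in the mouse JUNB is a direct target of SMAD3 and SMAD4.

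The libraries held at least 17394711 reads on genes after SMAD4 siRNA and 17680952 after control siRNA. These are the smallest whole reads that the values allow, so every counting interval below can be wider than with the true reads. Each interval covers counting error only, and differences between animals, pools, transfections or library preparations are not in it. SMAD4 itself stood at 47.9 UQRPKM in the SMAD4 siRNA library and 85.0 UQRPKM in the control library, a ratio of 0.563 with a 95% counting interval from 0.497 to 0.639. Of 16 granulosa markers, 13 had a mean of at least 1 UQRPKM, 8 of them below 0 and 5 above on the log2 scale. Of all 16609 genes with such a mean, 9056 were below 0. The list summed to 26708 UQRPKM after SMAD4 siRNA and 15630 UQRPKM after control siRNA, most of it HSD3B1, a steroid hormone enzyme, at a ratio of 1.90. GATA6, CDH2 and NR5A1 were at 0.820, 0.806 and 0.849, with counting intervals below 1. AMHR2 was at 0.493 (0.266 to 0.886) on 54 reads over both libraries, and INHBA was at 1.31. FOXL2 was at 146 UQRPKM after SMAD4 siRNA and 132 UQRPKM after control siRNA, but FSHR had only 7 reads after SMAD4 siRNA and 9 after control siRNA, and both libraries list AMH, INHBB and CYP19A1 at 0.

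The AP-1 and EGR genes showed small differences between the libraries. Of the 8, 6 were lower after SMAD4 siRNA, where 9056 of all 16609 genes compared were. EGR1, FOSL2 and JUN were at 0.797, 0.809 and 0.821 of their control values, with counting intervals below 1. JUNB and FOSL1 were at 1.08 and 1.04, with intervals that held 1. EGR2 was the single member past 2-fold, on 17 reads over both libraries. The median log2 ratio of (SMAD4 siRNA value + 1) over (control value + 1) was -0.26 over the 8 genes, beside -0.05 over the 16609 genes compared, those whose mean value over both libraries was 1 or more.

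Among the FOS family, FOSL2 (also called Fra-2), a member that lacks the strong activation domain of FOS, had the highest level. It stood at 1238 UQRPKM from at least 3138 reads after SMAD4 siRNA and at 1529 UQRPKM from at least 3521 reads after control siRNA. The ratio was 0.809 (95% counting interval 0.771 to 0.850). This is the narrowest interval of the 8 genes, and it lies wholly below 1.

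FOSL1 (Fra-1), the other FOS relative without that domain and a known AP-1 target itself, stood at 520 UQRPKM from at least 876 reads after SMAD4 siRNA and at 499 UQRPKM from at least 764 reads after control siRNA. Its ratio of 1.04 (0.944 to 1.15) did not leave 1. FOS, the founding member and the most transient, was the lowest of the 3, with 96.4 UQRPKM from at least 108 reads after SMAD4 siRNA and 113 UQRPKM from at least 115 reads after control siRNA. Its ratio was 0.853 (0.650 to 1.12), so a difference of that size was not detectable at this depth.

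The 2 JUN genes lay on opposite sides of 1. JUN, the strongest activator of its family, stood at 445 UQRPKM from at least 528 reads after SMAD4 siRNA and at 542 UQRPKM from at least 584 reads after control siRNA. Its ratio was 0.821 (0.729 to 0.925). JUNB, a weaker activator that can oppose JUN, stood at 1126 UQRPKM from at least 1035 reads after SMAD4 siRNA and at 1045 UQRPKM from at least 872 reads after control siRNA. Its ratio was 1.08 (0.984 to 1.18). JUN was thus lower beyond counting error and JUNB was not. The interval of JUN rests on the scaling of the libraries: with both rescaled to the same sum of values it was 0.891 (0.791 to 1.004) and reached just past 1.

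ATF3 stood at 258 UQRPKM from at least 86 reads after SMAD4 siRNA and at 288 UQRPKM from at least 87 reads after control siRNA. Its ratio was 0.898 (0.659 to 1.22), so the interval allows a difference in either direction. These reads belong to a smallest whole length of 340 bases. At a longer true length the reads would be a multiple of these and the interval narrower.

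**Figure D1:**
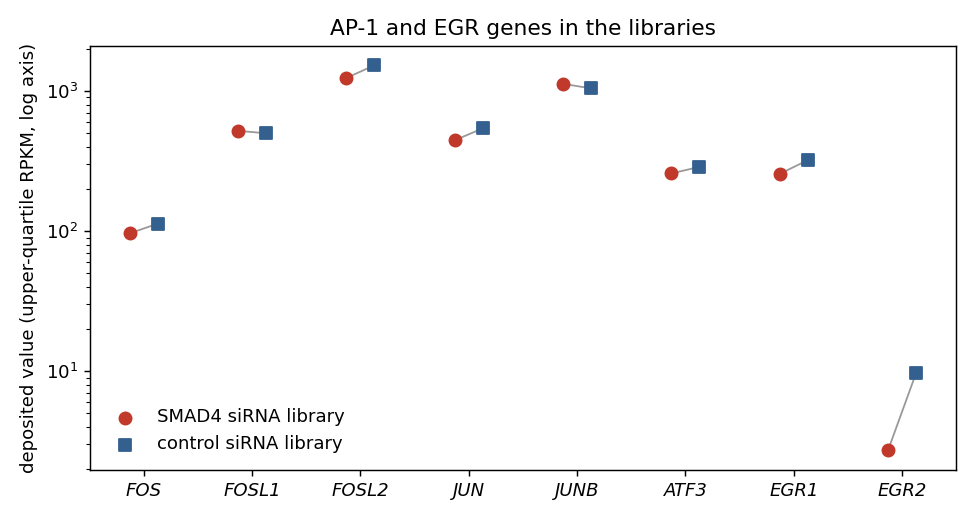
Deposited values (upper-quartile RPKM, log axis) of the 8 AP-1 and EGR genes in the SMAD4 siRNA library (red circles, left) and the control siRNA library (blue squares, right), 1 library each, with a line joining the same gene. FOSL2 (1238 after SMAD4 siRNA, 1529 after control siRNA) is the highest in both libraries, and EGR2 (2.72 after SMAD4 siRNA, 9.74 after control siRNA) is the lowest.

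Of the EGR factors, EGR1, the one that gonadotropins and growth factors induce most widely, stood at 256 UQRPKM from at least 794 reads after SMAD4 siRNA and at 321 UQRPKM from at least 905 reads after control siRNA. The ratio was 0.797 (0.723 to 0.877), the lowest of the 7 members with at least 100 reads. EGR2 (Krox20) was barely present, with 2.72 UQRPKM on 4 reads after SMAD4 siRNA and 9.74 UQRPKM on 13 reads after control siRNA. Its ratio was 0.279 (0.0664 to 0.905). An interval this wide holds ratios close to 1 as well as differences far past 2-fold. The related EGR3 had 7 reads after SMAD4 siRNA and 3 after control siRNA, and EGR4 had 1 read in each library, so EGR1 held nearly all the measured EGR transcripts.

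**Figure D2:**
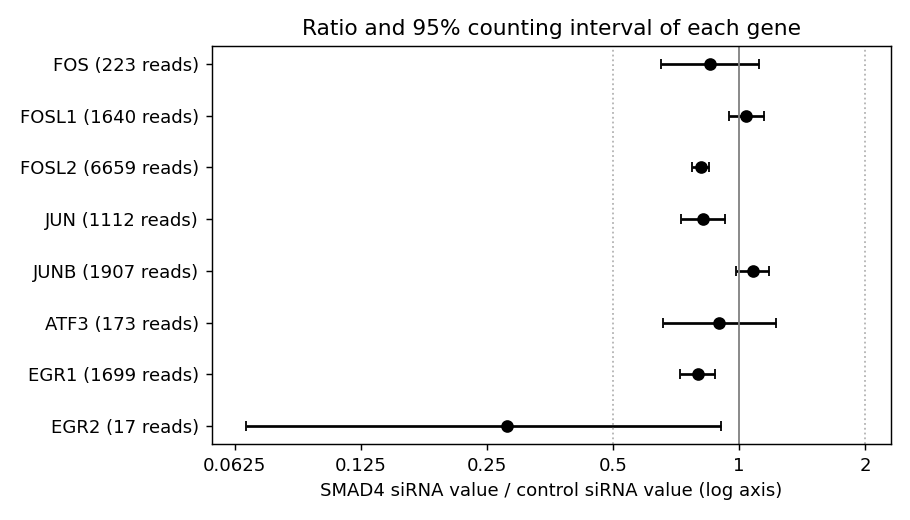
Ratio of the SMAD4 siRNA value to the control siRNA value for each gene (log axis), with its 95% Clopper-Pearson counting interval. Reads are the smallest whole numbers over both libraries, and dotted lines mark 2-fold. FOSL2, JUN, EGR1 and EGR2 have intervals below 1, while those of FOS, FOSL1, JUNB and ATF3 hold 1.

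Counted over the list, 0 of the 8 members were higher by at least 2-fold, where 7.17% of all compared genes were, and 1 was lower by at least 2-fold, where 6.68% were. Most genes past 2-fold have few reads, and EGR2 is such a gene. Among genes with at least 100 reads, 1.32% were higher and 1.12% lower by 2-fold, and 0 of the 7 members with as many reads were either. Counting intervals lay wholly below 1 for 4 members, where 21.5% of all compared genes had such an interval, and wholly above 1 for 0 members, where 12.7% did. That 0 holds for the scaling as deposited: JUNB was at 1.11 (1.02 to 1.22) with centring on the median of all genes and at 1.17 (1.07 to 1.28) with both libraries rescaled to the same sum, where FOSL1 was at 1.13 (1.02 to 1.25). With at least 100 reads, 3 of 7 members had an interval below 1, beside 32.4% of all such genes, and 17.6% of those genes had one above 1. The members' share of intervals below 1 is thus near that of genes measured as deeply.

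**Figure D3:**
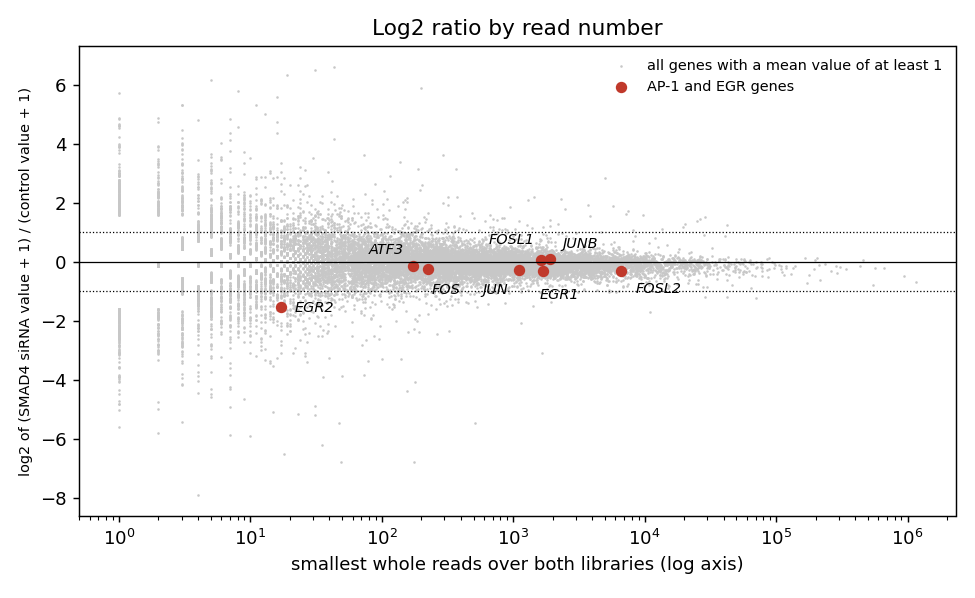
Log2 ratio of (SMAD4 siRNA value + 1) over (control value + 1) against the smallest whole reads over both libraries (log axis) for the 16609 genes compared (grey), with the 8 AP-1 and EGR genes in red and 2-fold dotted. The 7 members with at least 100 reads lie between -0.33 and 0.11, and EGR2, on 17 reads, lies at -1.53.

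The order of levels differed little. In the SMAD4 siRNA library it ran FOSL2, JUNB, FOSL1, JUN, ATF3, EGR1, FOS and EGR2. ATF3 and EGR1 could not be told apart there, with a quotient of values of 1.01 (0.798 to 1.26), whereas FOSL1 was above JUN by 1.17 (1.05 to 1.30). In the control library JUN stood before FOSL1 and EGR1 before ATF3, but neither pair differed beyond counting error: JUN over FOSL1 was 1.09 (0.973 to 1.21) and EGR1 over ATF3 was 1.12 (0.896 to 1.41). All other neighbours differed beyond counting error in both libraries. Against all genes above 0, FOSL2 was higher than 92.1% in the SMAD4 siRNA library and 93.1% in the control library. JUNB was higher than 91.4% after SMAD4 siRNA and 90.5% after control siRNA. FOS was higher than 60.0% after SMAD4 siRNA and 61.7% after control siRNA.

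The quotient of 2 genes within a library does not depend on how the libraries are scaled. FOSL2 over JUNB was 1.10 in the SMAD4 siRNA library and 1.46 in the control library, a ratio of these quotients of 0.751 (0.677 to 0.833). JUN over JUNB was 0.395 after SMAD4 siRNA and 0.519 after control siRNA, a ratio of 0.762 (0.655 to 0.886). JUNB over EGR1 was 4.398 after SMAD4 siRNA and 3.25 after control siRNA, a ratio of 1.35 (1.18 to 1.55). Relative to JUNB, then, FOSL2, JUN and EGR1 were each lower in the SMAD4 siRNA library beyond counting error.

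FOSL1 diverged from the same 3 genes. FOSL1 over FOSL2 was 0.420 after SMAD4 siRNA and 0.327 after control siRNA, a ratio of 1.29 (1.15 to 1.44). FOSL1 over JUN had a ratio of 1.27 (1.09 to 1.48) and FOSL1 over EGR1 one of 1.31 (1.14 to 1.501). JUNB and FOSL1 did not separate from each other: FOSL1 over JUNB was 0.462 after SMAD4 siRNA and 0.478 after control siRNA, a ratio of 0.966 (0.844 to 1.11). Nor did FOSL2 and JUN, at 0.986 (0.866 to 1.12), or FOSL2 and EGR1, at 1.02 (0.912 to 1.13). Of all 28 pairs of members, 8 had an interval of this ratio that left 1, and all 8 involved JUNB or FOSL1. The remaining 2 of these were against EGR2 and rest on its 17 reads. JUNB and FOSL1 are the 2 members with the highest ratios, and the pairs reuse the same reads without adjustment for their number. The share among pairs of all genes was not computed. Against FOS and ATF3 both held 1, with FOS over JUNB at 0.791 (0.593 to 1.05) and JUNB over ATF3 at 1.20 (0.868 to 1.66).

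As a share of the summed UQRPKM of the 6 measured AP-1 genes, FOSL2 made up 33.6% in the SMAD4 siRNA library and 38.1% in the control library. JUNB made up 30.6% after SMAD4 siRNA and 26.0% after control siRNA. FOSL1 followed with 14.1% after SMAD4 siRNA and 12.4% after control siRNA, and JUN with 12.1% after SMAD4 siRNA and 13.5% after control siRNA. ATF3 and FOS were the smallest, ATF3 at 7.01% after SMAD4 siRNA and 7.16% after control siRNA, and FOS at 2.62% after SMAD4 siRNA and 2.82% after control siRNA. The measured pool therefore had FOSL2 as its largest component in both libraries, with JUNB nearer to it after SMAD4 siRNA. The summed FOS family stood at 1854 UQRPKM after SMAD4 siRNA and 2142 UQRPKM after control siRNA, a ratio of 0.866. The summed JUN and JUNB stood at 1571 UQRPKM after SMAD4 siRNA and 1586 UQRPKM after control siRNA, a ratio of 0.990. Within that JUN sum, JUNB took 71.7% after SMAD4 siRNA and 65.8% after control siRNA. FOSB and JUND are not in these sums.

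**Figure D4:**
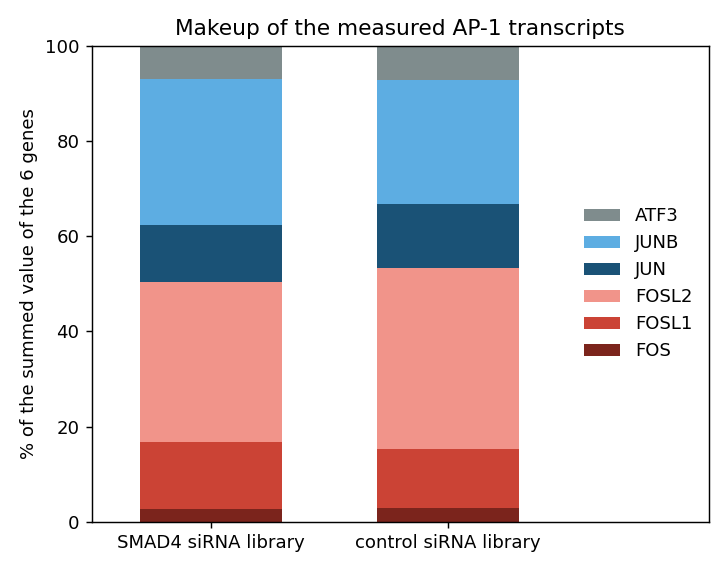
Share of each gene in the summed deposited value of the 6 measured AP-1 genes (percent), in the SMAD4 siRNA library (left bar) and the control siRNA library (right bar). FOSL2 is 33.6% of the SMAD4 siRNA bar and 38.1% of the control bar, and JUNB is 30.6% of the SMAD4 siRNA bar and 26.0% of the control bar.

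Other basic leucine zipper proteins that pair with AP-1 members, or bind related elements, went both ways. Of 20 compared, 10 were on each side of 0, with a median log2 ratio of 0.01. Counting intervals lay above 1 for 5 and below 1 for 5, where 12.7% of all compared genes were above and 21.5% below. Among the 13 with at least 100 reads, 5 had an interval above 1 and 5 below, beside 17.6% and 32.4% of all genes with as many reads. BATF3 and BATF2, which pair with JUN proteins in immune cells, were at 1.75 (1.25 to 2.47) and 1.71 (1.25 to 2.37). ATF5, a stress-response factor, was at 1.52 (1.32 to 1.77). At the other end CEBPB, a mediator of the ovulatory response in mouse granulosa cells, was at 0.614 (0.514 to 0.732), ATF6, a sensor of unfolded protein, at 0.718 (0.592 to 0.871), and MAFF, a small MAF protein, at 0.797 (0.690 to 0.919). JDP2, a repressor that pairs with JUN, stood at 845 UQRPKM after SMAD4 siRNA and 983 UQRPKM after control siRNA, a ratio of 0.860 (0.766 to 0.964). BATF, on 4 reads over both libraries, was the single gene of this list past 2-fold, on the lower side. Of all compared genes, 6.68% were lower and 7.17% higher by 2-fold. BATF is named after its value was seen.

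The partners and relatives of EGR1 had a median log2 ratio of -0.03 over 9 genes. Of these, 0 were past 2-fold, where 7.17% of all compared genes were higher and 6.68% lower. Counting intervals lay above 1 for 2 and below 1 for 2, where 12.7% of all compared genes were above and 21.5% below. Among the 7 with at least 100 reads, 1 had an interval above 1 and 2 below, beside 17.6% and 32.4% of all genes with as many reads. NAB2, a corepressor that EGR1 induces and that binds it in return, stood at 35.0 UQRPKM after SMAD4 siRNA and 57.5 UQRPKM after control siRNA, a ratio of 0.608 (0.459 to 0.801). Its relative NAB1 was at 0.889 (0.724 to 1.09). EGR1 and NAB2 were both lower after SMAD4 siRNA, and a link between the 2 differences was not tested. Among the Krüppel-like factors, whose zinc fingers bind GC-rich sites as those of EGR1 do, KLF6 was at 0.815 (0.743 to 0.894), while KLF4 was at 1.31 (1.06 to 1.62) and KLF10, a TGF-beta-induced gene, at 1.30 (0.936 to 1.81). WT1, a zinc finger factor of the EGR type, was at 0.976 (0.896 to 1.06).

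Other immediate early genes, with KLF2, KLF4, KLF6, KLF10 and EGR3 counted here as well as among the EGR1 relatives, had a median log2 ratio of -0.11 over 25 genes. Of these 16 were below 0 and 9 above, where 9056 of all 16609 were below 0. Counting intervals lay below 1 for 9, where 21.5% of all compared genes had one, and above 1 for 3, where 12.7% did. Among the 18 with at least 100 reads, 9 had an interval below 1 and 2 above, beside 32.4% and 17.6% of all genes with as many reads. SGK1, a kinase induced by gonadotropins and serum, was at 0.701 (0.641 to 0.765), the survival gene MCL1 at 0.717 (0.677 to 0.758) and GADD45B, a stress gene that TGF-beta also induces, at 0.742 (0.677 to 0.813). IER3, an early gene of cell survival, was on the other side, at 522 UQRPKM after SMAD4 siRNA and 356 UQRPKM after control siRNA, a ratio of 1.47 (1.31 to 1.64). ZFP36, which speeds the decay of FOS mRNA, had 39 reads in each library, a ratio of 0.908 (0.567 to 1.45). TRIB1, on 8 reads over both libraries, was the single gene of this list past 2-fold, on the lower side. Of all compared genes, 6.68% were lower and 7.17% higher by 2-fold. TRIB1 is named after its value was seen. NR4A1 was listed at 0 in both libraries, as was the widely expressed kinase MAPK3, so a listed 0 says nothing of expression.

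The mRNAs of kinases and factors that act upstream of these genes lay mostly below 0, by small amounts. Of 24, 19 were below 0, with a median log2 ratio of -0.21, beside -0.05 for all compared genes. Counting intervals lay below 1 for 13, where 21.5% of all compared genes had one, and above 1 for 2, where 12.7% did. Of all compared genes, 9056 of 16609 were below 0. Among the 19 genes of this list with at least 100 reads, 12 had an interval below 1, beside 32.4% of all genes with as many reads. MAP2K1, a kinase of the ERK cascade, was at 0.799 (0.697 to 0.916). MAPK9, which phosphorylates JUN, was at 0.775 (0.680 to 0.883), from 430 reads after SMAD4 siRNA and 504 after control siRNA.

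ELK1, an ETS factor that MAP kinases phosphorylate, was at 0.871 (0.750 to 1.01). Its partner SRF, with which it binds the serum response elements of FOS and EGR1, was at 0.893 (0.836 to 0.954). On the higher side were MAP2K7, which activates JUN kinases, at 1.14 (1.04 to 1.24), and ELK4 and BRAF at 1.51 (0.991 to 2.31) and 1.04 (0.812 to 1.33). RPS6KA5 and MAP2K6, lower by at least 2-fold on 12 reads each over both libraries, are named after their values were seen. They are the 2 of the 24 compared that were lower by 2-fold, and 0 were higher. Of all compared genes, 6.68% were lower and 7.17% higher by 2-fold. With both libraries rescaled to the same sum the list median was -0.08 over the 21 genes that then kept a mean value of 1 or more. Activity of the kinases was not measured, and a link of this list to the members was not tested.

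Genes known to carry AP-1 or EGR1 sites went both ways. Of 22, 9 had a counting interval below 1, where 21.5% of all compared genes did, and 6 above, where 12.7% did, with a median log2 ratio of -0.12. Among the 17 with at least 100 reads, 9 had an interval below 1 and 5 above, beside 32.4% and 17.6% of all genes with as many reads. MMP9, a gelatinase with AP-1 sites in its promoter, stood at 50.5 UQRPKM after SMAD4 siRNA and 131 UQRPKM after control siRNA, a ratio of 0.385 (0.306 to 0.481). THBS1, a matrix protein that activates latent TGF-beta, was at 0.583 (0.580 to 0.587). In the other direction SPP1, the matrix protein osteopontin, stood at 510 UQRPKM after SMAD4 siRNA and 270 UQRPKM after control siRNA, a ratio of 1.89 (1.67 to 2.14).

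TGFB1, which is an EGR1 and AP-1 target as well as a ligand upstream of SMAD4, was at 1.69 (1.47 to 1.94), and CCND1, the G1 cyclin, at 1.23 (1.07 to 1.43). Past 2-fold were also FGF2 on the lower side, on 13 reads over both libraries, and EREG and MMP1 on the higher side, on 36 and 12 reads. These 3 are named after their values were seen. Of all compared genes, 7.17% were higher and 6.68% lower by 2-fold. PTGS2, the ovulatory cyclooxygenase, had 10 reads in each library. Known targets of the same factors thus lay on both sides of 1.

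**Figure D5:**
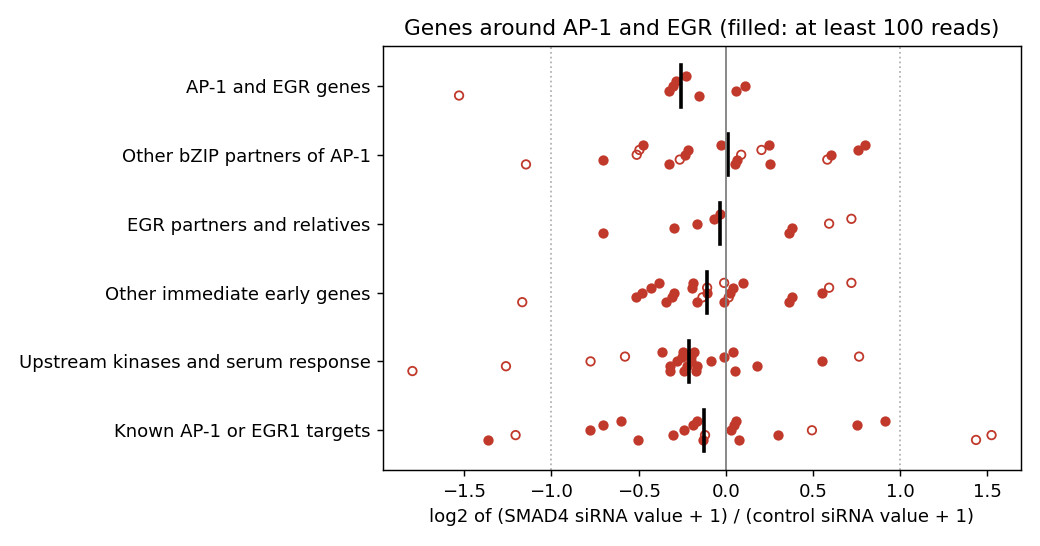
Log2 ratio of (SMAD4 siRNA value + 1) over (control value + 1) for each gene compared, by list. Filled points have at least 100 reads over both libraries, open points fewer, black bars are medians, and dotted lines mark 2-fold. The medians run from -0.26 for the AP-1 and EGR genes to 0.01 for other bZIP partners.

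Markers of other cell types were present in part. The 6 leukocyte markers that have a row summed to 571 UQRPKM after SMAD4 siRNA and 583 UQRPKM after control siRNA, nearly all of it CD14, while PTPRC had 2 reads after SMAD4 siRNA and 1 after control siRNA, and CD163 was listed at 0 in both libraries. The 5 fibroblast and smooth muscle markers summed to 453923 UQRPKM after SMAD4 siRNA and 684831 UQRPKM after control siRNA, with 3 of 5 below 0. Most of each sum was ACTA2, at a ratio of 0.622, and TAGLN was at 0.801. COL1A1 was at 1.06 (1.01 to 1.11), and THY1 and PDGFRB, at 1.02 and 0.918, had intervals that held 1. The theca markers DCN, COL3A1 and PDGFRA were lower, with a list sum of 30507 UQRPKM after SMAD4 siRNA and 39709 UQRPKM after control siRNA, and CYP17A1, INSL3 and LHCGR were listed at 0 in both libraries. Endothelial markers summed to 341 UQRPKM after SMAD4 siRNA and 445 UQRPKM after control siRNA, with TEK and TIE1 listed at 0 in both libraries. The part of these cells in the differences of the AP-1 and EGR genes was not tested.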

How the data were processed

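RNA was measured in 1 library per treatment, each from a pool of 3 individuals. Per the labels' protocols, RNA was extracted with TRIzol and the Ion Total RNA-Seq Kit served to build libraries for Ion Torrent Proton sequencing. The authors deposited RPKM values scaled to each library's upper quartile, as the tables' names say. Aligner, counter, strand setting, genome build and annotation were not given in the sources used here.

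Reads were recovered from the deposited RPKM values with 1 divisor per library, 980 for SMAD4 siRNA and 890 for control siRNA. All 18428 genes above 0 gave whole reads at a whole length no greater than 40000 bases (tolerance 2e-09 relative or 1e-06 absolute). The smallest such numbers were used, so reads are lower bounds. Ratios of values have exact Clopper-Pearson 95% intervals, and ratios of quotients have exact conditional intervals. Intervals cover counting error only and leave out differences between animals, pools and library preparations. Reads also need not be independent molecules. Log2 ratios used a pseudocount of 1 over genes whose mean value was 1 or more, and that scale understates changes of low values. Genes at a log2 ratio of 1 or more, or -1 or less, were called.

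Genes named are the 8 members, SMAD4, up to 3 genes with at least 100 reads at each end of 5 related lists, and genes paired with them. Some genes that this rule takes are not reported here. Further genes past 2-fold, and genes mentioned as listed at 0 or with few reads, were named after their values were seen. Names came from the tables themselves and, for gene numbers and older symbols, from RefSeq's gene table (Sscrofa11.1), which served no other purpose. Members and lists were chosen with earlier results of these data known. The related lists overlap by KLF2, KLF4, KLF6, KLF10, EGR3, EGR4, SRF and NAB2, so their counts are not separate. The steps were run on simulated data with Python 3.11.15 and scipy 1.17.1. Those data took the recovered lengths and divisors as given, so they cannot show whether these are the true ones. Alternatives were other pseudocounts, scalings, minimums and thresholds.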

Additional observations from a re-analysis of the deposited data

How the results depend on the processing

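With pseudocounts of 0.1 and 5, median centring, rescaling to the same sum, no minimum, at least 100 reads and a 1.5-fold threshold, 0 members were higher. Members lower by 2-fold numbered 1, EGR2, and 0 with a pseudocount of 5, with rescaling to the same sum and with at least 100 reads. The pseudocount weighs more on its low values under the first, and the other 2 leave EGR2 out, by its mean value or its 17 reads. The median log2 ratio of the members ran from -0.26 to -0.10, the last over 7 members under the same sum, over these settings other than the threshold and over the 5 members listed by symbol alone, a set chosen after seeing the data. All 8 members kept the direction of their log2 ratio under the 4 settings of pseudocount and scaling. With rescaling to the same sum EGR2 was at -0.48, FOSL2 at -0.19, SMAD4 at -0.58 and the FOS family sum at -0.09, and the sum of JUN and JUNB was at 0.10, on the other side of 0 from its -0.01.

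Rescaling to the same sum added 0.12 to each log2 ratio of plain values, and on the scale of value + 1 it also draws ratios of low genes toward 0, since it lowers all values. Centring added 0.05. Counting intervals under both scalings were added after seeing the data. JUNB was then above 1 under both and FOSL1 under the same sum alone. FOSL2, EGR1 and EGR2 stayed below 1 under both. No paired analysis was possible because each group has 1 library. For the same reason leaving out a replicate was not run. Reads as recovered limit FOS, ATF3 and EGR2, and those of ATF3, at a length of 340 bases, may be too few.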
